A study of Astyanax mexicanus with 14 samples.

Results

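The 150 genes described here were the steadiest transcripts of whole Mexican tetra larvae (Astyanax mexicanus) over 2 populations and a UV-B exposure. They were chosen by their spread. Counts were scaled with TMM (trimmed mean of M values, an edgeR method that sets the scale of each library from the bulk of its genes) and given as CPM, counts per mega-count of scaled library. The spread of a gene was the standard deviation (SD) of its log2 CPM over all 14 libraries. The 150 genes of lowest spread were taken among 6891 candidates, which were the genes with a mean of at least 20 CPM and a mean under 1000 CPM in the 7 control libraries. In all the table listed 19076 genes, and 473 of them were without a count. Because the spread itself chose these genes, their low values below are a description of the choice and not a finding.

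Every library held the RNA of 4 whole larvae pooled at 6 days post-fertilization (dpf) and collected 90 min after a 60 s exposure. There were 3 libraries of Pachon cave morph larvae given UV-B (cave UV-B, replicates 1, 2 and 4) and 3 of cave morph larvae given white light as control (cave control, replicates 2, 3 and 4). Surface morph larvae gave 4 UV-B libraries (surface UV-B) and 4 white light libraries (surface control), each with replicates 1 to 4. No group carried a transgene or a drug by its labels, and whether the larvae of a group came from more than 1 clutch was not given, so the p-values measure the spread between these pools only.

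Steady genes of this kind serve as the ruler of an expression experiment. In a quantitative PCR assay the level of a gene of interest is divided by that of a reference gene, often called a housekeeping gene because its product is needed by nearly every cell. A reference that itself moves with the treatment, or differs between the populations, passes its own change on to every ratio. Actin, glycolytic enzymes and ribosomal proteins are common choices. UV-B light damages DNA, halts transcription at the lesions, and calls up repair enzymes such as photolyases, so the transcriptome as a whole is disturbed and the choice of ruler matters.

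The deposited table gave gene identifiers only. None of the 150 members could be given a name (0 with a symbol), so they appear by identifier, with no role. Names were available for a few other genes. The study's methods pair rpl13a, cpdp and ddb2 with identifiers. The names actb2, gapdh, rpl8 and rho were taken from the study's lists of its strongest responders, so these genes could be named because they responded, and they are no fair sample of reference genes. Of the cell type markers looked for in these whole larvae, rho, the rod opsin of photoreceptors, was the sole gene with an identifier. It had 4.90 ± 0.49 CPM in cave UV-B (SD, n = 3), 2.08 ± 0.19 CPM in cave control (n = 3), 1970 ± 91.4 CPM in surface UV-B (n = 4) and 1202 ± 185 CPM in surface control libraries (n = 4). It had the highest spread of all 6891 candidates (SD 4.55 on the log2 scale), at the opposite end of the ranking from the members. In bulk libraries, fewer cells of a type and less RNA per cell cannot be told apart.

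Library totals ran from 7.42 to 15.3 M counts, in mega-counts, and 3 counts, the most that a count of 0 allows, were worth 0.197 to 0.404 CPM. Such limits, and the counting spreads given below, hold counting error alone, since reads copied by PCR were not traced to single molecules. The replicates differed by 5.01 to 18.5 in chi-square per degree of freedom within their groups, so none was a library deposited again. The TMM factors averaged 0.808 ± 0.0619 in cave UV-B (SD, n = 3), 1.01 ± 0.0863 in cave control (n = 3), 1.02 ± 0.0335 in surface UV-B (n = 4) and 1.152 ± 0.0309 in surface control libraries (n = 4). They were lowest in cave UV-B and highest in surface control. The CPM values, spreads and differences of group means below rest on them unless another scaling, or none, is named. The edgeR tests took TMM factors anew from the libraries compared, after a filter on low counts. The choice of the members rests on the factors over all 14 libraries in every case.

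The members' SD ran from 0.053 to 0.118 on the log2 scale, with a median of 0.107, against a median of 0.281 over the candidates. The highest of the 14 libraries was 1.13 to 1.41 times the lowest for a given member (median 1.28), against a median of 1.90 times over the candidates. For 105 of the 150 members (70%) this factor was under 1.3, which held for 1.74% of the candidates. For all 150 it was under 1.5, which held for 14.6% of the candidates. The members' mean levels ran from 21.5 CPM (ENSAMXG00000004321) to 776.5 CPM (ENSAMXG00000002219), with a median of 85.0 CPM, against 46.9 CPM over the candidates. No member was near the floor of detection, since the lowest count in any library ran from 131 to 4537 over the members. The members were therefore somewhat more abundant than the candidates as a set.

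**Figure D1:**
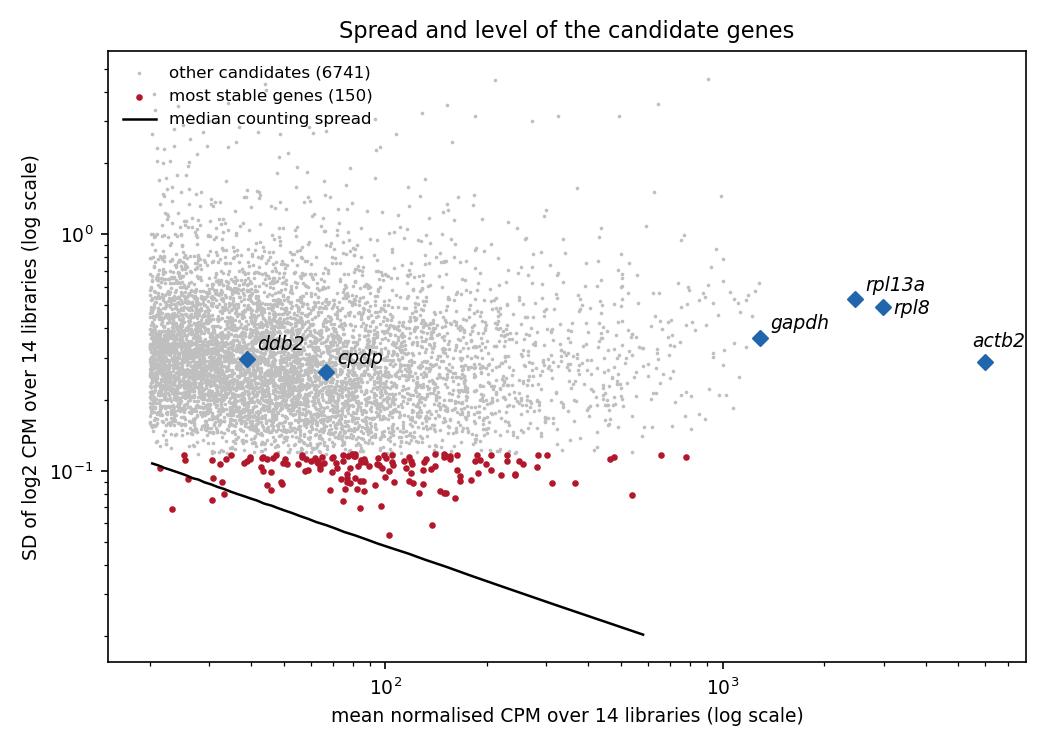
Spread (SD of log2 CPM over 14 libraries, log axis) against mean CPM (log axis) for the 150 members in red and the other 6741 candidates in grey, with the median spread that counting alone would give as a black line and 6 named genes as blue diamonds. The members lie along the lower edge, at SDs up to 0.118, while the 6 named genes lie between 0.262 and 0.533.

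The share of candidates taken as members changed with the level. Between 20 and 30 CPM, 5 of 1758 candidates were members (0.284%), and between 30 and 50 CPM, 25 of 1915 (1.31%). Between 50 and 100 CPM there were 58 members among 1855 candidates (3.13%), and between 100 and 200 CPM 43 among 855 (5.03%). At 200 CPM and above there were 19 among 508 (3.74%). The spread that counting alone would give fell with the level over these classes, with a median of 0.099 between 20 and 30 CPM and 0.027 at 200 CPM and above. At the lowest levels counting therefore took up most of the spread that a member was allowed, as the plot of spread against level shows.

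The gene of lowest spread was ENSAMXG00000041416, with an SD of 0.053 and 671 to 1749 counts per library. It had 98.5, 103 and 102 CPM in cave UV-B, 101, 107.8 and 109 CPM in cave control, 104, 107, 103 and 100.5 CPM in surface UV-B, and 104, 97.0, 96.4 and 103 CPM in surface control libraries. The groups overlapped in every comparison, and the lowest and the highest of the 14 values were 96.4 and 109 CPM. The next, ENSAMXG00000016029 (SD 0.059), had 148.4, 135 and 138 CPM in cave UV-B, 139, 135 and 127 CPM in cave control, 145, 139, 145 and 134 CPM in surface UV-B, and 133, 134, 134 and 141 CPM in surface control libraries. Its lowest library was cave control replicate 4 and its highest cave UV-B replicate 1.

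A ratio of these 2 genes needs no scaling, since both were counted in the same library. The counts of ENSAMXG00000041416 divided by those of ENSAMXG00000016029 gave 0.664, 0.761 and 0.739 in cave UV-B, 0.730, 0.801 and 0.857 in cave control, 0.716, 0.772, 0.70998 and 0.749 in surface UV-B, and 0.786, 0.723, 0.717 and 0.728 in surface control libraries. The group means were 0.721 ± 0.0508 (SD, n = 3) in cave UV-B, 0.796 ± 0.0636 (n = 3) in cave control, 0.737 ± 0.0288 (n = 4) in surface UV-B and 0.739 ± 0.0318 (n = 4) in surface control libraries. The cave UV-B and cave control ranges overlapped, as did those of every other pair of groups, and the SD of the log2 ratio was 0.089.

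ENSAMXG00000008796 was the least abundant of the 10 genes of lowest spread, at a mean of 23.2 CPM with 153 to 418 counts per library. It had 21.99, 23.5 and 23.0 CPM in cave UV-B, 23.4, 23.2 and 23.3 CPM in cave control, 23.0, 22.9, 21.0 and 25.04 CPM in surface UV-B, and 23.0, 25.08, 22.3 and 24.6 CPM in surface control libraries. Its SD of 0.069 was 0.703 times the spread that counting alone would give at its counts. ENSAMXG00000037820 (SD 0.070) was the member whose groups were most alike, with 0.872% of its variance between the 4 groups. It had 89.5, 83.1 and 80.9 CPM in cave UV-B, 78.4, 90.6 and 84.5 CPM in cave control, 79.8, 81.3, 88.1 and 88.0 CPM in surface UV-B, and 82.2, 80.0, 83.2 and 89.0 CPM in surface control libraries. Here the spread lay within the groups.

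Of the other 6 of the 10, 3 show how small differences between groups looked at this spread. ENSAMXG00000039443 (SD 0.075) had 70.6, 71.1 and 71.2 CPM in cave UV-B and 81.7, 78.4, 76.3 and 76.9 CPM in surface UV-B libraries, against 71.7, 75.4 and 70.5 CPM in cave control and 75.3, 70.3, 74.8 and 81.0 CPM in surface control libraries. Every cave UV-B value was below every surface UV-B value (edgeR adjusted p = 0.192), and the control groups overlapped. ENSAMXG00000017118 (SD 0.080) had 35.2, 34.8 and 34.2 CPM in cave UV-B, 37.0, 35.1 and 34.3 CPM in cave control, 30.7, 33.0, 32.2 and 31.9 CPM in surface UV-B, and 31.8, 30.9, 33.9 and 31.8 CPM in surface control libraries. All 6 cave values were above all 8 surface values, so 72.8% of its small variance lay between groups. The population difference was not called after UV-B (edgeR adjusted p = 0.366) or in controls (0.457). Over all genes tested, cave and surface groups did not overlap for 47.1% after UV-B and for 34.8% in controls. ENSAMXG00000042444, the most abundant of the 10 (mean 539.7 CPM, SD 0.079), had 566, 542 and 567 CPM in cave UV-B, 526, 558 and 519.5 CPM in cave control, 575, 563, 527 and 572 CPM in surface UV-B, and 497, 484, 516 and 543 CPM in surface control libraries. Its lowest 3 values were all surface controls.

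ENSAMXG00000033879 (SD 0.071) ran from 86.7 CPM in surface UV-B replicate 4 to 106.5 CPM in surface control replicate 3. ENSAMXG00000024268 (SD 0.075) ran from 26.8 CPM in surface control replicate 3 to 32.6 CPM in cave control replicate 3, and its cave controls (32.4, 32.6 and 32.2 CPM) lay above all the other libraries. ENSAMXG00000039940 (SD 0.076) ran from 149.2 to 172.5 CPM, and both ends were surface controls (replicates 2 and 4). The lowest and the highest library were thus not the same for these genes, which is what the plot of deviations by library shows.

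**Figure D2:**
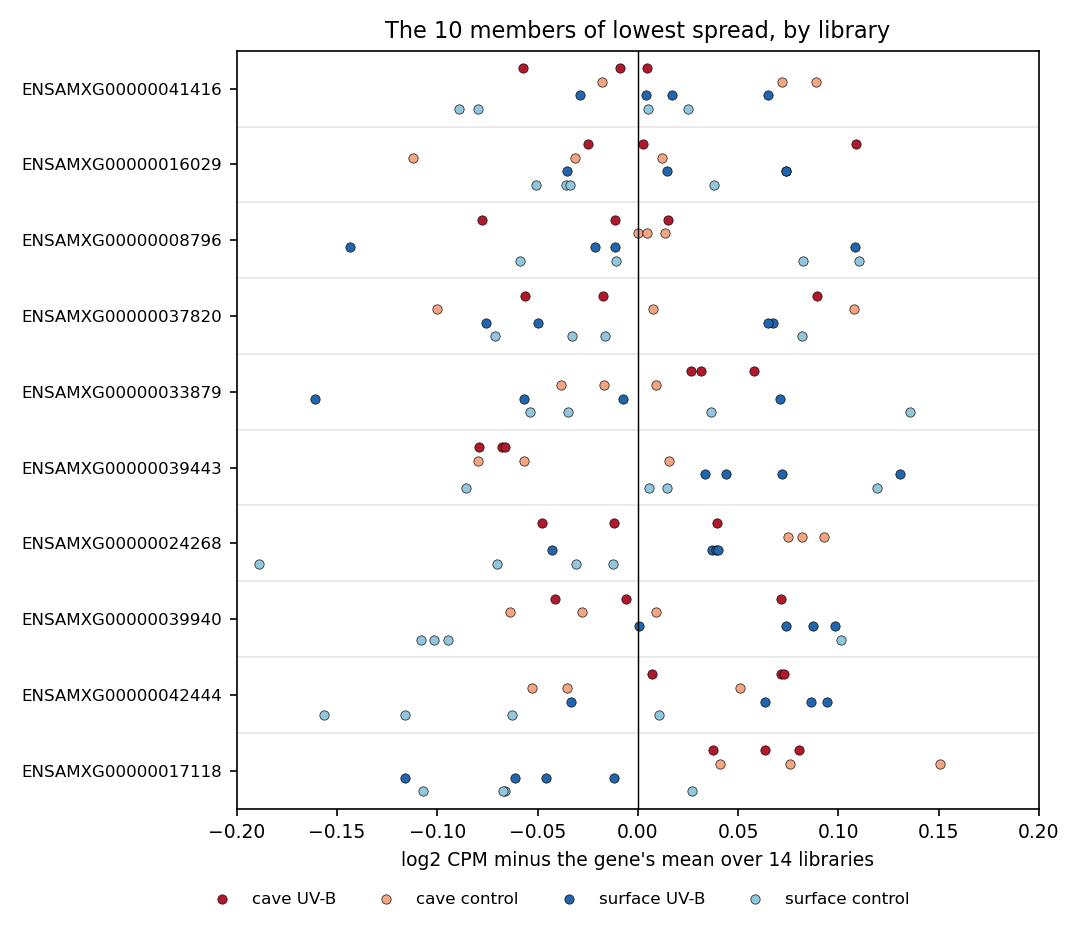
Log2 CPM of the 10 genes of lowest spread in each of the 14 libraries, as the deviation from the gene's own mean (x axis), with the 4 groups as rows of points within each gene, cave UV-B uppermost. All points lie within 0.2 of the gene's mean, and no library is at the same end for all 10 genes.

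Around the limit of 150 the order was close. The last 3 genes taken, ENSAMXG00000011853, ENSAMXG00000000667 and ENSAMXG00000015505, had SDs of 0.11745 to 0.11754, and the first 3 left out, ENSAMXG00000002091, ENSAMXG00000041903 and ENSAMXG00000018335, had 0.11817. Of the genes just inside, ENSAMXG00000000667 had 80.0, 74.98 and 76.4 CPM in cave UV-B and 92.8, 89.6 and 85.5 CPM in cave control libraries, while ENSAMXG00000015505 had 77.9, 91.7, 92.5 and 90.4 CPM in surface UV-B and 76.4, 76.3, 86.1 and 85.1 CPM in surface control libraries. The cave UV-B and cave control values of ENSAMXG00000000667 did not overlap, as for 41.4% of all genes tested. Its log2 fold change there was -0.21 (edgeR adjusted p = 0.18, 95% interval -0.45 to 0.028), so a difference was not called. The genes just outside ran from 58.1 to 77.1 CPM (ENSAMXG00000002091), 92.5 to 126 CPM (ENSAMXG00000041903) and 23.0 to 31.7 CPM (ENSAMXG00000018335) over the 14 libraries. No upper limit on abundance shaped the list, since 0 of the 125 genes with a control mean of 1000 CPM or more had an SD under the members' limit.

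The observed spread was then set against the spread that counting alone would give at each gene's counts. The ratio of the observed to the counting spread ran from 0.703 to 6.69 over the members, with a median of 2.01, against a median of 4.15 over the candidates. Of the members, 4 were at or under the counting spread (ENSAMXG00000008796, ENSAMXG00000024268, ENSAMXG00000017118 and ENSAMXG00000020484), and 73 were under 2 times it. At the other end, 27 members were at least 3 times above it, led by ENSAMXG00000002219 (776.5 CPM, SD 0.114, ratio 6.69), ENSAMXG00000010573 (654.2 CPM, ratio 6.30) and ENSAMXG00000019641 (476.0 CPM, ratio 5.24). The least abundant members thus sat near the counting spread, and the most abundant well above it.

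The share of the variance that lay between the 4 groups had a median of 35.3% over the members (0.872 to 76.5%) and of 73.3% over the candidates. It was 50% or more in 49 members, against 78.2% of the candidates. The SD within groups had a median of 0.092 over the members and of 0.163 over the candidates. The choice therefore took genes that were even between groups and also even between replicates.

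The differences between group means were small, as the rule required. After UV-B, the members' log2 differences had a median of -0.0030 in cave larvae (-0.24 to 0.23) and 0.034 in surface larvae (-0.16 to 0.22). For cave minus surface larvae the median was -0.028 after UV-B (-0.27 to 0.21) and -0.0012 in controls (-0.24 to 0.21). A difference of at least 0.2 in size was found in 4 members for UV-B in cave larvae, against 67.1% of the candidates, and in 2 members for UV-B in surface larvae, against 52.2%. Between the populations it was found in 6 members after UV-B, against 65.8% of the candidates, and in 7 members in controls, against 56.3%. These are the limits that the choice set, and no test was made of them.

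The small differences that remained are given by group as a description, since the choice used these values. No such counts over the candidates are set beside them. Cave means rest on 3 libraries and surface means on 4, so equal numbers were not to be awaited. The highest of the 4 group means was that of cave UV-B for 34 members, cave control for 30, surface UV-B for 55 and surface control for 31. The lowest was cave UV-B for 49 members, cave control for 40, surface UV-B for 18 and surface control for 43. By group mean, 74 members were higher in cave UV-B than in cave control and 93 were higher in surface UV-B than in surface control, with the same sign in both populations for 91. Surface UV-B libraries thus stood slightly high for the members, by a median deviation that averaged 0.026 on the log2 scale. The candidates leaned the same way in surface larvae, while in cave larvae the candidates leaned up and the members did not. Their median difference for UV-B was 0.059 in surface larvae, against 0.034 over the members, and 0.054 in cave larvae, against -0.0030.

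Among single libraries, the median deviation of the 150 members from their own means ran from -0.057 in cave control replicate 2 to 0.044 in surface control replicate 4. The number of members within 0.1 of their mean on the log2 scale ran from 82 in cave control replicate 2 to 115 in surface control replicate 1. Cave control replicate 2 was the lowest library for 27 members and surface control replicate 2 for 25. The highest library was most often surface UV-B replicate 2, for 17 members. When the choice was repeated without cave control replicate 2, 111 of the 150 were taken again, the smallest number for any library left out.

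All 150 members were tested in each comparison with edgeR's quasi-likelihood test, adjusted over all genes by the Benjamini-Hochberg method, and a gene was called at an adjusted p under 0.05. The rule used these libraries, so nothing is read from the members' counts. For UV-B against control in surface larvae 28.8% of 15523 genes tested were called, and 1 member was called (4 at an unadjusted p under 0.05 in edgeR). In cave larvae 26.3% of 15244 genes were called and 0 members (0 at an unadjusted p under 0.05 in edgeR, and 0 with DESeq2 and with limma-voom). Between cave and surface larvae 44.3% of 15510 genes were called after UV-B, with 2 members (9 at an unadjusted p under 0.05 in edgeR). In controls 27.6% of 15812 genes were called, with 0 members (3 at an unadjusted p under 0.05, and 0 with DESeq2 and with limma-voom). For the population by UV-B interaction, the cave response minus the surface response, 3.7% of 16104 genes and 0 members were called (2 members at an unadjusted p under 0.05, and 0 with DESeq2 and with limma-voom). In all, 147 members were called in none of the 5 comparisons.

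A gene that is not called is not shown to be unchanged, so the intervals of the log2 fold changes are given. The rule favoured narrow intervals near 0, and nothing is read from them. The median length of the 95% interval to either side was 0.257 for UV-B in cave larvae, 0.175 for UV-B in surface larvae, 0.188 for cave against surface after UV-B, 0.226 for cave against surface in controls and 0.280 for the interaction. The interval lay wholly between -0.5 and 0.5 for 149 members for UV-B in cave larvae and for all 150 for UV-B in surface larvae. It did so for all 150 for both population differences and for 137 members for the interaction. Between -0.3 and 0.3 lay 32 intervals for UV-B in cave larvae, 132 for UV-B in surface larvae and 17 for the interaction. The intervals were wider for the cave response, with 3 libraries a group, than for the surface response, with 4.

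The member called for UV-B was ENSAMXG00000041421 (SD 0.101). It had 228, 212, 216 and 229 CPM in surface UV-B and 197, 192, 184 and 192 CPM in surface control libraries, against 195, 192 and 213 CPM in cave UV-B and 201, 207 and 219.9 CPM in cave control libraries. All surface UV-B values were above all surface control values, while the cave groups overlapped. Its log2 fold change was 0.21 in surface larvae (SE 0.075, edgeR adjusted p = 0.0429, 95% interval 0.053 to 0.37) and -0.066 in cave larvae (SE 0.115, edgeR adjusted p = 0.715). The difference between the responses was -0.28 (SE 0.121, edgeR adjusted p = 0.230, interval -0.53 to -0.028), so a difference between the populations was not called. The surface call ended when any library other than surface UV-B replicate 2 or surface control replicate 4 was left out (edgeR adjusted p 0.0343 to 0.111 over the 8 fits), without the filter on low counts (edgeR adjusted p = 0.0561), and with library totals in place of TMM (0.031, edgeR adjusted p = 0.777).

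Both members called between the populations after UV-B were lower in cave larvae, and are named here because they were called, after their values were seen. ENSAMXG00000040397 (SD 0.112) had 140.2, 146 and 139.95 CPM in cave UV-B and 168, 163, 166 and 166 CPM in surface UV-B libraries (log2 fold change -0.22, SE 0.081, edgeR adjusted p = 0.0328). In controls it had 147.6, 166 and 155 CPM in cave and 146, 145, 153 and 178 CPM in surface libraries, which overlapped. ENSAMXG00000011853 (SD 0.117) had 141, 134 and 131 CPM in cave UV-B and 174, 156, 162 and 159 CPM in surface UV-B libraries (log2 fold change -0.27, SE 0.084, edgeR adjusted p = 0.0168). In controls its log2 fold change was -0.10 (edgeR adjusted p = 0.492). The difference between the responses to UV-B was not called for ENSAMXG00000040397 (-0.23, edgeR adjusted p = 0.367) or ENSAMXG00000011853 (-0.18, edgeR adjusted p = 0.475). The call of ENSAMXG00000040397 ended when cave UV-B replicate 1 (edgeR adjusted p = 0.0924) or 4 (0.0906) was dropped, and likewise surface UV-B replicate 1 (0.0637), 3 (0.0569) or 4 (0.0579), and that of ENSAMXG00000011853 without cave UV-B replicate 4 (0.0664) or surface UV-B replicate 1 (0.0509). With library totals the differences were -0.56 for ENSAMXG00000040397 (edgeR adjusted p = 9.31e-05) and -0.60 for ENSAMXG00000011853 (edgeR adjusted p = 3.84e-05).

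The groups did not overlap for more members than were called, the 3 called members among them. In cave larvae the UV-B and control values did not overlap for 30 members (13 above, 17 below), against 41.4% of all genes tested, and in surface larvae for 11 (7 above, 4 below), against 27.9%. Between cave and surface larvae they did not overlap for 27 members after UV-B (6 above, 21 below), against 47.1%, and for 17 in controls (9 above, 8 below), against 34.8%. As shares of the 150, these were 20%, 7.33%, 18% and 11.3%. The choice used these values too.

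Whether low spread carried over to other larvae was measured by choosing 150 genes in 1 population and reading them in the other, which the choice had not used. The TMM factors were common to all libraries. The 150 genes of lowest SD over the 8 surface libraries had a median SD of 0.153 over the 6 cave libraries (quartiles 0.1076 and 0.198), against 0.261 over all candidates of that choice. Of them, 135 (90%) had an SD below the candidates' median in cave larvae, and 19 were among the 150 lowest of the 6952 candidates there. The 150 genes chosen over the 6 cave libraries had a median SD of 0.124 over the 8 surface libraries (quartiles 0.093 and 0.162), against 0.188 over the candidates. Of these, 130 (86.7%) were below the candidates' median and 19 again among the 150 lowest, of 6747 candidates. Most of the chosen genes thus stayed below the candidates' median, and a minority stayed among the 150 lowest. The chosen genes were more abundant than the candidates, and the part of abundance in these SDs was not tested.

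The genes chosen in a population could then be tested for UV-B in the other. For the calls and fold changes, the candidates set beside them are those taken over all 14 libraries, the libraries tested among them. Of the 150 chosen in surface larvae, 20 were called for UV-B in cave larvae (13.3%, 5 higher and 15 lower), against 26.3% of all genes and 36.1% of the candidates. Their median absolute log2 fold change was 0.136, against 0.316 for the candidates, and 0 of them changed by 2-fold or more. Of the 150 chosen in cave larvae, 18 were called for UV-B in surface larvae (12%, 13 higher and 5 lower), against 28.8% of all genes and 35.8% of the candidates. Their median absolute log2 fold change was 0.095, against 0.212 for the candidates, and again 0 reached 2-fold. The genes chosen were more abundant than the candidates of the same choice (medians of 75.3 CPM against 46.6 CPM for the surface choice and 76.1 CPM against 47.2 CPM for the cave choice), and the part of abundance in these shares was not tested.

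These counts moved with single libraries. For the genes chosen in surface larvae, the count called in cave larvae was 8 with cave UV-B replicate 1 left out (15.3% of all genes called), 9 with replicate 2 left out (20.7%), 6 with replicate 4 left out (15.7%) and 10 with cave control replicate 3 left out (19.7%). For the genes chosen in cave larvae, the count called in surface larvae was 7 without surface UV-B replicate 1 (23.1% of all genes), 7 without surface UV-B replicate 4 (22%), 9 without surface control replicate 1 (23.3%), 10 without surface control replicate 2 (24.3%) and 7 without surface control replicate 3 (21.1%). Without surface control replicate 4 it was 34 (29.6% of all genes), the highest count of these fits. In each of these fits with a library left out, the share of the chosen genes stayed below the share of all genes, the nearest being 22.7% against 29.6% in the fit without surface control replicate 4. With library totals as the scale this order turned in cave larvae, where 58 of the genes chosen in surface larvae were called (38.7%, all lower), against 31.6% of all genes. In surface larvae 23 of the genes chosen in cave larvae were then called (15.3%, 1 higher and 22 lower), against 32.0% of all genes.

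The same was done by treatment. The 150 genes of lowest SD over the 7 UV-B libraries had a median SD of 0.143 over the 7 control libraries, against 0.222 over the candidates, and 138 were below the candidates' median. The 150 chosen over the 7 control libraries had a median SD of 0.141 over the UV-B libraries, against 0.231, and 129 were below the median. A minority of these genes were members. The choice shared 42 genes with the members when made on UV-B libraries, 41 on controls, 47 on cave and 38 on surface libraries.

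A second view of the members needs no scaling at all, since a ratio of 2 genes within a library cancels its depth. Over all 11175 pairs of members the SD of the log2 ratio had a median of 0.138 and ran from 0.039 to 0.219. A member's mean SD of the ratio to the other members ran from 0.109 to 0.156, with a median of 0.140. These low values were set by the choice of the members. Over the 6741 other candidates the mean SD of the ratio to the members had a median of 0.299 (quartiles 0.227 and 0.419). The mean SD of the ratio to the members was 0.538 for rpl13a, 0.495 for rpl8, 0.372 for gapdh and 0.299 for actb2, which is 3.85, 3.54, 2.66 and 2.14 times the members' median. For the repair genes it was 0.266 for cpdp and 0.303 for ddb2. The value of actb2 was thus near the candidates' median, and those of rpl13a and rpl8 were above their upper quartile. Since rpl8, gapdh and actb2 could be named because they responded, these values are a description.

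The part of each library that the members took up differed between the groups. The 150 members held 1.43, 1.56 and 1.36% of all counts in cave UV-B, 1.92, 1.76 and 1.74% in cave control, 1.84, 1.97, 1.85 and 1.84% in surface UV-B, and 2.05, 2.01, 2.10 and 2.08% in surface control libraries. The 3 cave UV-B values were below all the others. The means were 1.45 ± 0.10% in cave UV-B (SD, n = 3), 1.81 ± 0.099% in cave control (n = 3), 1.88 ± 0.063% in surface UV-B (n = 4) and 2.06 ± 0.043% in surface control libraries (n = 4). The share taken by the other genes moved the opposite way, so steadiness here is steadiness relative to the bulk of genes and not per total RNA.

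With library totals as the scale, the same 150 genes were not steady. Their median deviation then averaged -0.31 on the log2 scale in cave UV-B, -0.0019 in cave control, 0.050 in surface UV-B and 0.20 in surface control libraries, and 0 of the 150 would have been chosen again. The members moved with the median of all genes. The choice of genes flat on the TMM scale fixed this in advance, so the values are a description. For UV-B against control, the median fold change of all genes on this scale was -0.33 in cave and -0.18 in surface larvae, and that of the members -0.32 and -0.14. Between the populations, cave over surface, it was -0.34 after UV-B and -0.21 in controls over all genes, and -0.36 and -0.20 over the members. Relative to those shifts the members remained near 0, as the choice required.

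The scale also set the split of calls over all genes. Of the genes called for UV-B, 47.7% were higher in cave larvae with TMM and 15.0% with library totals, and 46.4% were higher in surface larvae with TMM and 16.1% with library totals. Between the populations, 48.9% were higher in cave after UV-B with TMM and 19.1% with library totals, and 45.9% and 23.7% in controls. On library totals 50 of the 150 members were called for UV-B in cave larvae, against 31.6% of all genes. In surface larvae 23 were called, against 32.0%, and in both populations all were lower. Between the populations 125 members were called after UV-B, against 8215 of 15510 genes. In controls 20 were called, against 5038 of 15812 genes, and all were lower in cave. The rule used these libraries, so nothing is read from these counts. No spike-in was named in the sources used here, so the amount of RNA per larva and the scale cannot be told apart.

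Scaled to rpl13a, a protein of the large ribosomal subunit that the study used as its PCR reference, the members appeared to differ far more between groups. The study ran those PCR assays on adult fins and younger larvae at set times of day, and named no UV-B exposure for them. Their median deviation averaged -0.78 in cave UV-B, -0.14 in cave control, 0.12 in surface UV-B and 0.58 in surface control libraries. It ran from -0.97 in cave UV-B replicate 4 to 0.63 in surface control replicate 1, and 0 of the 150 would have been chosen again. The 3 panels of the plot of the members under different scalings show the same counts each time, and only the divisor differs.

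**Figure D3:**
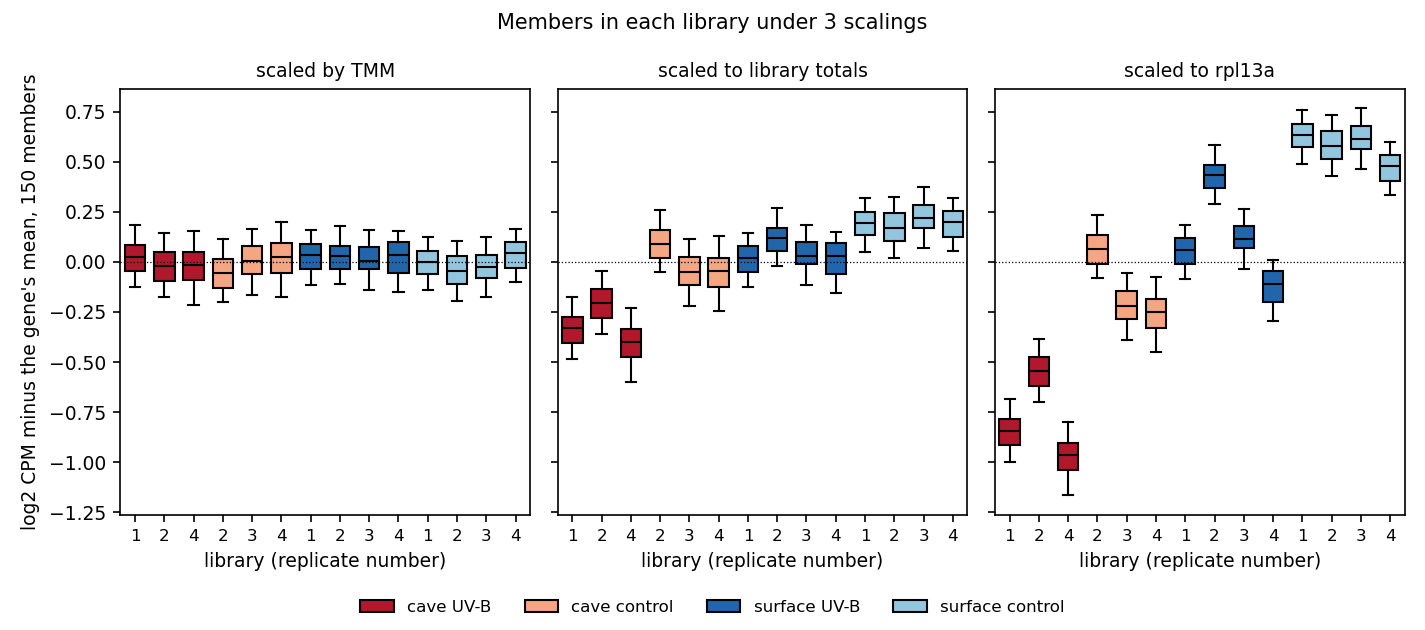
Deviation of log2 CPM from the gene's mean for the 150 members in each library, with counts scaled by TMM (left), to library totals (middle) and to rpl13a (right). Boxes span the quartiles with the median as a line, and whiskers span the 5th to the 95th percentile. The group means of the medians lie within 0.03 of 0 with TMM, but at -0.31 in cave UV-B and 0.20 in surface control with library totals, and at -0.78 and 0.58 with rpl13a.

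The levels of rpl13a itself ran the other way. It had 4220.5, 3322 and 4474 CPM in cave UV-B, 2122, 2693 and 2794 CPM in cave control, 2262, 1742, 2141.5 and 2552 CPM in surface UV-B, and 1487, 1491, 1478 and 1706 CPM in surface control libraries. UV-B libraries were above the controls of the same population with no overlap, and cave UV-B libraries were above all others. Its spread (SD 0.533) was higher than that of 86.6% of the genes with a mean of at least 20 CPM, and its highest library was 3.03 times its lowest. The log2 fold change was 0.66 for UV-B in cave larvae (edgeR adjusted p = 0.0156) and 0.50 in surface larvae (edgeR adjusted p = 0.00255). In cave over surface larvae it was 0.88 after UV-B (edgeR adjusted p = 4.73e-05) and 0.70 in controls (edgeR adjusted p = 0.000696). The cave UV-B call ended without cave UV-B replicate 1 (edgeR adjusted p = 0.0748) or 4 (0.0694). With library totals the UV-B values were 0.34 in cave (edgeR adjusted p = 0.0266) and 0.31 in surface larvae (0.0126), and cave over surface it was 0.54 after UV-B (0.000181).

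The same pattern is seen in ratios of raw counts, which need no scaling. The divisor was chosen for being flat on the TMM scale, so the ratio follows that scale and is not separate support. The counts of rpl13a divided by those of ENSAMXG00000041416, the steadiest member, gave 42.8, 32.3 and 43.9 in cave UV-B, 21.0, 24.98 and 25.6 in cave control, 21.8, 16.2, 20.8 and 25.4 in surface UV-B, and 14.3, 15.4, 15.3 and 16.6 in surface control libraries. Gene length enters the size of this ratio and not its change between libraries. The means were 39.7 ± 6.42 (SD, n = 3) in cave UV-B, 23.9 ± 2.53 (n = 3) in cave control, 21.1 ± 3.77 (n = 4) in surface UV-B and 15.4 ± 0.950 (n = 4) in surface control libraries. Only surface UV-B replicate 2, at 16.2, lay within the surface control range.

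The gene rpl8, whose product is also part of the large ribosomal subunit, followed rpl13a. It had 5003, 4022 and 5221 CPM in cave UV-B, 2406, 3140 and 3562 CPM in cave control, 2746, 2416, 2586 and 2887 CPM in surface UV-B, and 1922.5, 1885, 1863 and 2181.6 CPM in surface control libraries. UV-B libraries were again above the controls of their population with no overlap. The log2 fold change was 0.65 for UV-B in cave larvae (edgeR adjusted p = 0.0224), which was no longer called without cave UV-B replicate 1 (adjusted p = 0.094), cave UV-B replicate 4 (0.0855) or cave control replicate 3 (0.067). It was 0.44 in surface larvae (edgeR adjusted p = 0.00176), and 0.84 after UV-B (1.97e-05) and 0.61 in controls (0.00364) for cave against surface larvae. With library totals rpl8 had smaller values, at 0.33 for UV-B in cave larvae (edgeR adjusted p = 0.0415), 0.26 in surface larvae (0.0116) and 0.50 for cave against surface after UV-B (6.52e-05).

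The other conventional references each showed a pattern of their own. The gene gapdh, which encodes a glycolytic enzyme, had 1707, 1773 and 1918 CPM in cave UV-B, 832, 922 and 1230.1 CPM in cave control, 1490.3, 1298, 1401 and 1324 CPM in surface UV-B, and 1090.0, 1119, 994 and 1021 CPM in surface control libraries. It rose with UV-B in both populations with no overlap (log2 fold change 0.85 in cave, edgeR adjusted p = 0.00214, and 0.38 in surface larvae, edgeR adjusted p = 0.00267), and with library totals the values were 0.55 (edgeR adjusted p = 0.00737) and 0.20 (0.045). The controls of the populations overlapped (cave against surface -0.11, edgeR adjusted p = 0.578, 0.034 without cave control replicate 2, and -0.29 with library totals, adjusted p = 0.0591). The cave against surface difference after UV-B was 0.39 (edgeR adjusted p = 0.00459), and 0.052 with library totals (adjusted p = 0.639).

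The gene actb2, which encodes a cytoplasmic beta-actin, was the steadiest of the 4 (SD 0.289, higher than 51.6% of the genes with a mean of at least 20 CPM). It had 7679, 7286 and 7047 CPM in cave UV-B, 5692, 6176 and 8164 CPM in cave control, 6066, 5500.3, 5939 and 5831 CPM in surface UV-B, and 4696, 4667, 4417 and 4525 CPM in surface control libraries. The surface groups did not overlap and the cave groups did. The log2 fold change for UV-B was 0.14 in cave larvae (edgeR adjusted p = 0.644, and -0.17 with library totals) and 0.35 in surface larvae (edgeR adjusted p = 0.00433, and 0.17 with library totals, adjusted p = 0.0575). For cave against surface larvae it was 0.53 in controls (edgeR adjusted p = 0.00818, and 0.34 with library totals, adjusted p = 0.0214), and 0.33 after UV-B (edgeR adjusted p = 0.0192). The call after UV-B ended without cave UV-B replicate 1 (edgeR adjusted p = 0.0868) or surface UV-B replicate 3 (0.0533), and the value was -0.00082 with library totals.

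The members were last used as a ruler. The geometric mean of the 150 members in each library was the divisor for rpl13a and for 2 repair genes, cpdp, a photolyase that reverses UV-made pyrimidine dimers, and ddb2, which takes part in the recognition of UV damage. Differences between groups were tested by exact two-sided permutation tests over libraries, 12 in all. The smallest p they can give is 0.10 for 3 against 3 libraries, which cannot pass 0.05, and 0.0286 for 4 against 4 and 3 against 4. None of the 12 was at or under 0.05 after adjustment. Over 12 tests, a test at 0.0286 can pass after adjustment only if several others reach that floor too. The adjusted values therefore do not show that a difference was absent. The members were chosen flat on the TMM scale in these libraries, so ratios to them follow that scale.

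Relative to the members, rpl13a differed by 0.66 on the log2 scale for UV-B in cave larvae (exact permutation p = 0.10, adjusted p = 0.15) and by 0.46 in surface larvae (exact permutation p = 0.0286, adjusted p = 0.0857). Between cave and surface larvae it was 0.91 after UV-B and 0.71 in controls (exact permutation p = 0.0286, adjusted p = 0.0857 for each). The groups did not overlap in any of the 4 comparisons. In a given comparison, the log2 CPM of the groups did not overlap for 27.9 to 47.1% of all genes tested. The differences were at the limit of what the design can test.

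The photolyase cpdp had 56.1, 59.6 and 70.0 CPM in cave UV-B, 53.2, 57.2 and 68.5 CPM in cave control, 94.3, 72.0, 86.9 and 83.6 CPM in surface UV-B, and 57.7, 59.2, 58.9 and 59.1 CPM in surface control libraries. Relative to the members, UV-B left it 0.48 higher in surface larvae with no overlap (exact permutation p = 0.0286, adjusted p = 0.0857). In cave larvae the difference was 0.052 with overlap (exact permutation p = 0.60, adjusted p = 0.655). It was -0.046 when cave UV-B replicate 4 was dropped and -0.0038 when cave control replicate 2 was dropped. With library totals as the divisor in place of the members it was -0.26. For cave against surface larvae, relative to the members, it was -0.41 after UV-B (exact permutation p = 0.0857, adjusted p = 0.15). In controls it was 0.015 (exact permutation p = 0.914, adjusted p = 0.914), where the sign turned without cave control replicate 4 (-0.076). With library totals as the divisor in place of the members the value in controls was -0.18. In the fit across all genes the log2 fold change of cpdp was 0.52 for UV-B in surface larvae (edgeR adjusted p = 0.000551, and 0.34 with library totals, adjusted p = 0.00692) and 0.054 in cave larvae (0.809, and -0.26 with library totals). The difference between the responses was -0.47 (edgeR adjusted p = 0.106), so a difference was not called. Cave against surface, that fit gave -0.44 for cpdp after UV-B (edgeR adjusted p = 0.00329, and -0.78 with library totals) and 0.0042 in controls (0.981).

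The second repair gene, ddb2, had 31.0, 26.7 and 32.2 CPM in cave UV-B, 33.4, 37.0 and 37.2 CPM in cave control, 47.7, 37.3, 63.8 and 40.3 CPM in surface UV-B, and 36.6, 38.8, 38.0 and 44.2 CPM in surface control libraries. Relative to the members the differences were -0.26 for UV-B in cave larvae (exact permutation p = 0.10, adjusted p = 0.15) and 0.20 in surface larvae (exact permutation p = 0.371, adjusted p = 0.446). The surface value was 0.046 without surface UV-B replicate 3, the library of 63.8 CPM. Cave against surface, they were -0.60 after UV-B (exact permutation p = 0.0571, adjusted p = 0.137) and -0.13 in controls (exact permutation p = 0.114, adjusted p = 0.152). In the fit across all genes ddb2 was lower in cave than in surface larvae after UV-B (log2 fold change -0.65, edgeR adjusted p = 0.00312, and -0.99 with library totals). It was not called in controls (-0.15, edgeR adjusted p = 0.376), where library totals gave -0.33 (0.0388). For UV-B the fit gave -0.26 in cave larvae (edgeR adjusted p = 0.20, and -0.58 with library totals, adjusted p = 0.00895) and 0.26 in surface larvae (0.177), with a difference between the responses of -0.52 (0.199). The plot of named genes relative to the members shows each library.

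**Figure D4:**
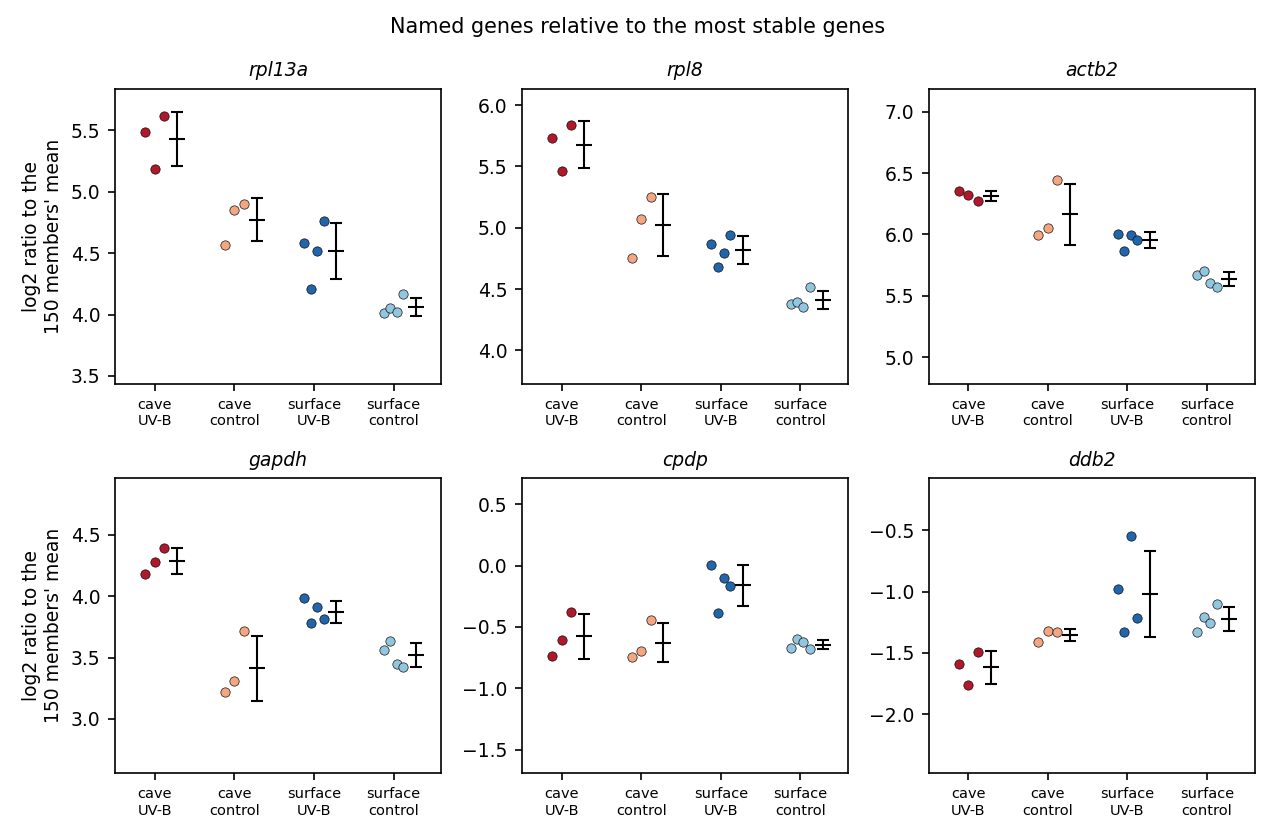
Log2 ratio of 6 named genes to the geometric mean of the 150 members in each library (points), with the mean and SD of each group beside the points; the y axes differ in position and each spans the same range. The UV-B points of rpl13a, rpl8 and gapdh lie above the controls of the same population, while the UV-B minus control difference of cpdp is 0.052 in cave and 0.48 in surface larvae.

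How far the list depends on the rule was read from the number of the 150 members that were chosen again when 1 choice was changed. A prior count of 0.5 or no upper limit on abundance kept all 150, a prior count of 10 or a minimum of 10 CPM kept 148, and TMM factors taken after a filter on low counts kept 142. DESeq2 size factors kept 125. A minimum of 50 CPM kept 120, as did scaling to the summed members, and the range in place of the SD, or the SD of the log2 ratios to all other candidates, kept 119. With the counting variance subtracted 116 were kept.

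Other measures of steadiness gave other genes. The median absolute deviation kept 63 members, the SD over the 4 group means 62, and the SD within groups 36. The SD over all libraries weighs the differences between groups and between replicates together, and neither alone kept the majority of the members. The membership plot sets these counts side by side.

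**Figure D5:**
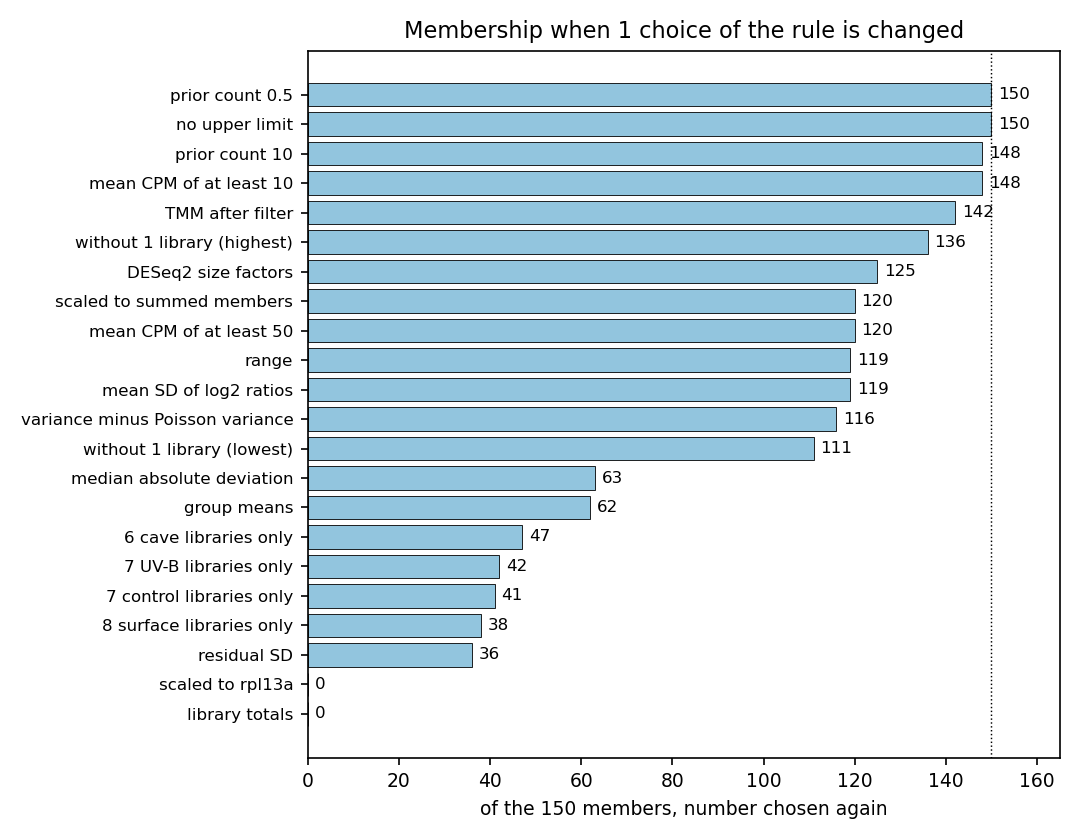
Number of the 150 members that were chosen again (bars, x axis from 0) when a single choice of the rule was changed (rows), with the dotted line at 150. The count is 111 to 150 for the other prior counts, filters and scalings drawn from the bulk of genes for any single library left out and for 3 other spread measures, 36 to 63 for a single population or treatment and for the remaining spread measures, and 0 for library totals and for rpl13a as the scale.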

How the data were processed

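RNA sequencing libraries of whole larvae were grouped by the sample labels, and each of the 14 count columns matched a single sample by name (0 columns unused). The table that the authors deposited holds raw counts of reads for each gene, which they took from STAR, a splice-aware mapper, run on genome version 2.0 and annotation release 108 of Ensembl. Which STAR version and strand setting were used, and how reads with several matches were handled, are not given in the sources used here, so overlapping, antisense and near-identical genes are uncertain, and totals describe the deposited counts. The members, gene lists and tests were chosen with earlier results of these data known.

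TMM scaling, log2 CPM with a prior count of 2 and quasi-likelihood tests after filterByExpr were made with edgeR 4.0.16 in R 4.3.3. Benjamini-Hochberg adjustment was over all genes tested. As in the study, which used DESeq2 for this, populations were fitted apart, and each comparison used only the libraries compared, except for the interaction, which used all 14. The counting spread was the square root of the mean reciprocal count, in log2 units. DESeq2 1.42.0, limma-voom (limma 3.58.1), other scalings, filters and prior counts, the replicate number as a block and leaving out each library were the alternatives, and those for single named genes and for genes chosen in 1 population, the ratio-based and within-group spreads, no upper limit, and scaling to rpl13a or to the members were chosen after seeing the data. The tests were run on simulated data with 200 changed genes. These changes were larger than the differences seen in the members, so that run does not measure sensitivity to differences of that size.

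The rule for naming genes was the 10 members of lowest SD, the 3 just inside and the 3 just outside the limit, the 2 highest and 2 lowest members called for UV-B, members with a symbol, and rpl13a, cpdp, ddb2 and conventional reference genes with an identifier. The reference gene table for names (assembly AstMex3_surface) matched 0 identifiers. Sequences, coordinates and gene lengths were not used here.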

Additional observations from a re-analysis of the deposited data

Results flagged for a closer look

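In groups of 4 libraries, the gap between an extreme library and its nearest neighbour was compared with the whole range of the group, for 25 genes and 3 measures of the libraries. Of 56 such checks 6 stood apart, where chance gives about 1 in 20 for a single check. The checks shared libraries and were not independent, so this count does not measure an excess over chance. The gene ENSAMXG00000024268 had 29.7 CPM in surface UV-B replicate 2 and 31.4 to 31.5 CPM in the other surface UV-B libraries, so that the gap made up 0.965 of the range. The gene ENSAMXG00000039940 had 172.5 CPM in surface control replicate 4 and 149 to 151 CPM in the other surface controls (0.94 of the range). The gene ENSAMXG00000015505 had 77.9 CPM in surface UV-B replicate 1 and 90.4 to 92.5 CPM in the others (0.854 of the range). The gene rpl13a had 1706 CPM in surface control replicate 4 and 1478 to 1491 CPM in the others (0.94 of the range). The members' share of counts was 1.97% in surface UV-B replicate 2 and 1.84 to 1.85% in the others (0.917 of the range), and their median deviation with library totals was 0.12 in the same library and 0.020 to 0.031 in the others (0.892 of the range).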

How the results depend on the processing

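Of the 150 members, library totals and scaling to rpl13a kept 0, the SD within groups 36, surface libraries alone 38, controls alone 41, UV-B libraries alone 42, cave libraries alone 47, group means 62 and the median absolute deviation 63, and leaving out a library kept 111 to 136. Members called for UV-B in surface larvae numbered 2 with DESeq2, 2 with DESeq2 size factors, 23 with library totals and 0 with no low-count filter, and 0 to 3 when a library was left out. With library totals there were 50 members called for UV-B in cave larvae, 125 for cave against surface after UV-B, 20 in controls and 2 for the interaction. Of all genes, 31.6% were then called for UV-B in cave larvae and 32.0% in surface larvae. Between the populations 8215 of 15510 genes were called after UV-B and 5038 of 15812 in controls. For the interaction the share of all genes is given with TMM only (3.7%). Leaving out a library gave 0 to 4 members after UV-B between the populations and 0 in every fit of the other 3 comparisons. Genes chosen in surface larvae and called in cave larvae numbered 58 with library totals and 6 to 21 when a library was left out, and genes chosen in cave larvae and called in surface larvae 7 to 34. In the other alternatives run they numbered 15 to 20 and 15 to 23.

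The replicate number as a block gave 0 members called for UV-B in surface larvae and 6 for cave against surface after UV-B, and ended the calls of ENSAMXG00000041421 (0.21, edgeR adjusted p = 0.0596) and of actb2 in controls (0.52, edgeR adjusted p = 0.0568). It turned cpdp, near 0 in controls, to -0.0097. Deviations of same-numbered libraries correlated by 0.071, -0.020, 0.022 and 0.087 in surface larvae and by 0.15 and 0.061 in cave larvae. Of these 6, 3 correlated best with their own number. With 3 or 4 libraries a group, this cannot show whether the numbers pair the libraries.

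With library totals, actb2 turned to -0.17 for UV-B in cave larvae and to -0.00082 for cave against surface after UV-B, and gapdh ran from -0.25 to 0.034 in controls when a library was left out, with the sign turned by leaving out cave control replicate 2. In the fit across all genes cpdp turned to -0.26 for UV-B in cave larvae and to -0.18 in controls with library totals, and in controls to -0.0017 with limma-voom and -0.0030 with no low-count filter. Without a library that fit gave it -0.043 to 0.16 for UV-B in cave larvae and -0.072 to 0.11 in controls. With library totals as the divisor in place of the members, cpdp turned to -0.26 (UV-B in cave larvae) and -0.18 (controls). Relative to the members without a library it ran from -0.046 to 0.14 for UV-B in cave larvae, with -0.0038 without cave control replicate 2, and from -0.076 to 0.071 in controls. With library totals in place of the members 7 of the 12 tests passed (exact permutation, adjusted p = 0.049): rpl13a at 0.55 after UV-B and 0.52 in controls, cpdp at 0.33 for UV-B in surface larvae, -0.78 after UV-B and -0.18 in controls, and ddb2 at -0.96 after UV-B and -0.33 in controls. These are ratios to library totals and not to the members, by construction. Each of the 7 passed only because the others were also at the smallest p that the exact test can give. The cause of the other changes was not tested. Depth limited the members near 20 CPM, where counting alone gave most of the spread.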
